A study of Mus musculus with 6 samples.

Results

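Ganglion cells are the first neurons to leave the cell cycle in the mouse retina, and the cells described here are embryonic retinal cells that held RNA of the distal-less genes Dlx1 and Dlx2 or of the neuropeptide gene Gal. The members were chosen on measured values. A cell barcode of the embryonic day (E) 14 or E16 library was kept when it had 300 to 6000 detected genes and at most 15% mitochondrial unique molecular identifiers (UMIs, each standing for 1 captured RNA molecule). A kept cell was a member when it held 1 or more UMI of at least 2 of Dlx1, Dlx2 and Gal and 0 UMIs of Tfap2b, Ptf1a and Mki67. There were 783 members among 18267 kept embryonic cells, 726 of 15553 at E14 and 57 of 2714 at E16.

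The series holds 6 single-cell RNA libraries of wild type mouse neurosensory retina, 1 each at E14, E16, postnatal day (P) 0 and P6 and 2 at P3. Several retinas were pooled for each age, dissociated with papain, and sorted by flow cytometry for single cells without the dead-cell dye DAPI before 10x Genomics capture. Members held a median of 4920.5 UMIs at E14 and 7908 at E16, and their summed depth was 4174885 and 469050 UMIs. Each embryonic age is 1 library, so no difference below has a replicate check or a test. Levels are CPM, the UMIs of a gene per 1000000 UMIs summed over a group of cells, and every interval is an exact 95% interval that covers counting error only. The E14 and E16 files are on different gene annotations, and E14 and E16 members are set against cells of their own library. The 2 libraries shared 1 kept barcode.

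Dlx1 and Dlx2 encode homeodomain transcription factors that act in forebrain and retinal neurons, where their loss impairs the production of ganglion cells. Ptf1a and Tfap2b, which the rule excludes, mark the amacrine and horizontal path, and Mki67 marks dividing cells. Atoh7 gives progenitors the competence to form ganglion cells and lies upstream of Pou4f2 and Isl1, whose products drive the ganglion cell programme. Galanin is a secreted peptide that acts through G protein-coupled receptors and is known mainly from neurons of the hypothalamus and brainstem.

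Dlx1 (ENSMUSG00000041911, chr2:71528113-71533981, plus strand, GRCm38) and Dlx2 (ENSMUSG00000023391, chr2:71543408-71546754, minus strand) are neighbouring protein-coding genes transcribed towards each other, with 9427 bases between their ends. Gal (ENSMUSG00000024907, minus strand) spans chr19:3409915-3414544. The promoter windows of these 3 genes are shown because the genes define the cells, and those of Insm2 and Sp8 because these genes, which the rule did not use, were among those furthest above other cells without Mki67 at E14. Each window holds 300 bases of the RefSeq sequence of GRCm38.p6, written 5′ to 3′ on the strand of the gene and ending 50 bases into the transcript. Capitals mark the homeodomain core TAATTA, which reads the same on both strands, or the E-box CAGATG and its reverse complement CATCTG.
Dlx1 promoter, chr2:71529195-71529494, plus strand: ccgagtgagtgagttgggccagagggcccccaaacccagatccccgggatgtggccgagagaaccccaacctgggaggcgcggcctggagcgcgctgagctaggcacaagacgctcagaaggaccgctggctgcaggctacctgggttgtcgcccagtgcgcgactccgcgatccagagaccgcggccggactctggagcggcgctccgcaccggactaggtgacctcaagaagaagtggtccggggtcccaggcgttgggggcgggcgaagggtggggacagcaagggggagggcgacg
Dlx2 promoter, chr2:71546705-71547004, minus strand: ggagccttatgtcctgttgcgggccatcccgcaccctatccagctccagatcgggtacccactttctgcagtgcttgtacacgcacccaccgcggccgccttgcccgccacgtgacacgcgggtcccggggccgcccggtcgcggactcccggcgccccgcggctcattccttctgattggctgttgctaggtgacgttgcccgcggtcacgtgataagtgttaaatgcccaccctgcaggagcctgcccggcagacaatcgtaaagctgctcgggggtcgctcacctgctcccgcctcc
Gal promoter, chr19:3414495-3414794, minus strand: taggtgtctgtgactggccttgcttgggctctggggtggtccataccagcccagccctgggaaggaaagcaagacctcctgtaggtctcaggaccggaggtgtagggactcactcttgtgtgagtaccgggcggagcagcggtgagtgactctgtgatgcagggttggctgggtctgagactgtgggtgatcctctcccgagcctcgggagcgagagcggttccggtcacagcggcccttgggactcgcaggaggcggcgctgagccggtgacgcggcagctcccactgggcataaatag
Insm2 promoter, chr12:55598667-55598966, plus strand: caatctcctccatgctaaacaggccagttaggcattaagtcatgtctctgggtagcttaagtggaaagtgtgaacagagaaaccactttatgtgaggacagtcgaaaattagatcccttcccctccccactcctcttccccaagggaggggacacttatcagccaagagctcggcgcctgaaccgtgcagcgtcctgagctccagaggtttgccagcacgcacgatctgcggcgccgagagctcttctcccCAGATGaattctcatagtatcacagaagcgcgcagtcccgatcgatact
Sp8 promoter, the third of 3 annotated starts, chr12:118847309-118847608, plus strand: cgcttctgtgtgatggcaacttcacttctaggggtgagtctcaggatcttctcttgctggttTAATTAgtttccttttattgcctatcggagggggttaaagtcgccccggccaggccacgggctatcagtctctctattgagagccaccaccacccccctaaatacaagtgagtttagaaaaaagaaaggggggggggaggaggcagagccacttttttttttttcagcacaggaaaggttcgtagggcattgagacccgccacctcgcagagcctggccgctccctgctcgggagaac
Neither motif was in the windows of Dlx1, Dlx2 and Gal. The Insm2 window held CAGATG or its complement once, at position 2 of the transcript, and this Sp8 window held TAATTA once, at position -188. The windows of the other 2 Sp8 starts held neither motif. Among 32851 RefSeq promoter windows of this length, 5.29% held TAATTA and 17.2% held CAGATG on either strand, and 6.12% and 19.2% of genes had such a window at any of their starts. A match describes letters in these windows only.

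Members made up 4.67% (4.34 to 5.01) of kept E14 cells and 2.10% (1.59 to 2.71) of kept E16 cells. The same rule found 21 of 10407 cells at P0, a share of 0.202%, then 6 of 12303 and 1 of 3113 cells in the P3 libraries. It found 0 of 13600 cells at P6, with an exact upper limit of 0.0271%. The rule, with its exclusions, thus selected cells almost only from the embryonic libraries. Without the 3 exclusions, at least 2 of the genes were detected in 1634 cells at E14, of which 762 held Mki67 and 146 held Tfap2b or Ptf1a without Mki67. At E16 the same numbers were 277, 179 and 41. At P0 they were 167, 34 and 112, so the exclusions left out most P0 cells with at least 2 of the genes. When the rule was applied after every cell had been thinned to 2000 UMIs, the shares were 3.16% at E14 and 0.921% at E16, so the share depends on depth at both ages. Doublets were called in 8.82% of members, 12.2% of other cells and 4.0% of other cells without Mki67 at E14, in 5.26% of members (3 cells), 2.07% of other cells and 1.06% of those without Mki67 at E16, and in 38.8% of the E14 cycling Dlx/Gal cells that the rule left out.

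**Figure D1:**
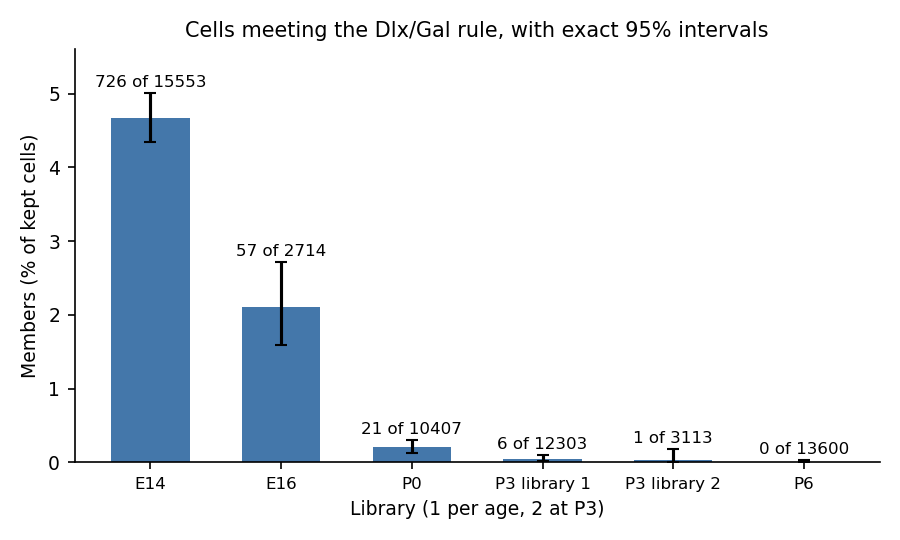
Share of kept cells (percent) that met the rule in each of the 6 libraries, with exact 95% intervals for counting error. The E14 and E16 libraries are at 4.67% and 2.10%, and the postnatal libraries are near 0.

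The values that chose the cells were low for the Dlx genes and wide for Gal. At E14 a member held 0 to 7 UMIs of Dlx1 and 0 to 5 of Dlx2, with a median of 1 for each. For Gal the range was 0 to 97 with a median of 3. The 3 genes together gave 2 to 101 UMIs with a median of 5, and 143 members, or 19.7%, were at the threshold with exactly 2 UMIs. Of the E14 members, 283 (39.0%) held Dlx1 and Gal without Dlx2, 152 (20.9%) Dlx2 and Gal without Dlx1, 108 (14.9%) both Dlx genes without Gal, and 183 (25.2%) all 3. At E16 the combinations held 29, 20, 3 and 5 cells, so most E16 members were chosen through Gal and a single Dlx gene. A Gal UMI was found in 39.6% of all kept cells at E16 and 21.6% at E14. The share of UMIs that came from RNA outside the cell was not estimated, so 1 UMI may not mean expression. Just outside the threshold, 1838 E14 cells held exactly 1 of the 3 genes, which was Gal in 74.0% of them.

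The label of these cells names them ganglion precursors, and Pou4f2 (Brn3b, ENSMUSG00000031688, chr8:78433010-78436645, minus strand), a transcription factor gene of newborn ganglion cells that the rule did not use, is a check of that name. At E14 Pou4f2 was at 157.1 CPM in members (656 UMIs) and 34.73 CPM in other kept cells, a log2 ratio of 2.18 (2.05 to 2.30). Since members lack Mki67 by rule, a closer reference is the 7497 other cells without a Mki67 UMI. These cells still held 2204 CPM of the proliferation list, against 1630 in members and 1139 in ganglion reference cells, so they may include cycling cells in which Mki67 was not detected. In these 7497 cells Pou4f2 was at 68.61 CPM and the log2 ratio was 1.20 (1.07 to 1.32). After thinning to 2000 UMIs, 25.8% (22.7 to 29.2) of E14 members held a Pou4f2 UMI, against 47.0% without thinning. The thinned share was 2.30% (1.23 to 3.91) in the neurogenic reference, cells picked by Neurog2, Hes6 and Dll3 and described further on. It had a counting interval of 17.6 to 22.6% in the ganglion reference, cells picked by Sncg, Nefl and Rbpms. In cells with 1 of the 3 genes of the rule it was 18.6% (16.8 to 20.5). The neurogenic reference had a median depth of 3795 UMIs and 4201 CPM of the proliferation list, so it too may include cycling cells. At E14 Pou4f2 thus stood above other cells without Mki67, in the direction the label gives. The neurogenic reference was kept clear of cells with at least 2 of Sncg, Nefl and Rbpms, and members were not. That may lower its Pou4f2 share, so the neurogenic share is no check of the label.

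At E16 Pou4f2 did not set the members apart from other cells without Mki67. Pou4f2 was at 70.36 CPM in the 57 members (33 UMIs) and 58.22 CPM in other cells without Mki67, a log2 ratio of 0.27 with an interval of -0.28 to 0.78. Against all other kept cells, cycling cells included, the Pou4f2 ratio was 1.42 (0.87 to 1.92), but it was 0.40 among cells under 4000 genes and 0.07 when the rule was applied after thinning. The thinned share of E16 members with a Pou4f2 UMI was 8.77% (2.91 to 19.3), with 15.6% in ganglion reference cells and 2.63% (0.320 to 9.18) in the E16 neurogenic reference. That neurogenic reference held 2795 CPM of the proliferation list, against 1021 CPM in E16 members. The E16 members are therefore called Dlx/Gal cells without a further name, and the E14 members carry most of the description.

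Members were next set against all other kept cells of their library, one gene at a time. At E14, 668 of 14048 genes with at least 50 UMIs, or 4.76%, were at least 2-fold higher in members and 1718, or 12.2%, were at least 2-fold lower. At E16 the shares were 9.03% and 9.47% of 11445 genes. In both libraries together 216 of 11289 genes (1.91%) were at least 2-fold higher and 386 (3.42%) lower. The count of 216 was 36 under 4000 genes, 48 when the rule was applied after thinning and 50 when averaged over cells. When the other cells were restricted to those without Mki67, the percentages were 0.801% higher and 5.92% lower at E14 and 1.86% and 7.35% at E16, and 6 genes were at least 2-fold higher at both ages.

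Transcription factors of the ganglion lineage were higher in members than in other kept cells at both ages, and most of that excess was gone among cells without Mki67. Of 19 described genes of this list, 10 were at least 2-fold higher and 0 lower at E14, with a median log2 ratio of 1.19 against -0.04 over all genes. At E16, 10 were higher and 2 lower, with a median of 1.09, and 8 of the 19 were higher at both ages. Over all genes 4.76% were higher and 12.2% lower at E14, and 9.03% and 9.47% at E16. Atoh7, which is nearly absent from the E16 library and gave 1 UMI in members, is among the lower genes there. Against cells without Mki67 the list median was 0.21 at E14 and 0.29 at E16. Isl1, a LIM homeodomain gene needed beside Pou4f2, was at 739.4 CPM in E14 members, 210.5 in other cells and 440.7 in those without Mki67. Its log2 ratio to the last group was 0.75 (0.69 to 0.80), which places it above that group as a whole. Myt1, a zinc finger gene of early neurons, was at 92.7 CPM in E14 members against 67.09 in cells without Mki67, a log2 ratio of 0.47. Ebf1, a factor of differentiating ganglion cells, was at 655.3 CPM in E14 members and 619.3 in cells without Mki67, a difference of 0.08 on the log2 scale. Pou4f1, Eomes and Pou4f3 did not share the excess of Isl1 at E14. Pou4f1 (Brn3a) was at 48.86 CPM in members and 55 in cells without Mki67, a log2 ratio of -0.17 whose interval (-0.39 to 0.04) spans 0, Eomes was at 5.749 and 14.2, and Pou4f3 (Brn3c) was at 3.832 and 11.79.

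Genes of neurite growth and the neuronal cytoskeleton followed the same order. In the ganglion maturation list 13 of 17 genes at E14 and 16 of 18 at E16 were at least 2-fold higher in members than in all other cells. The list medians were 1.11 and 1.35, and 4.76% and 9.03% of all genes were higher. Against cells without Mki67 the medians were 0.06 and 0.18. Sncg, the gamma-synuclein gene of ganglion cells, was at 1433 CPM in E14 members, 676.2 in other kept cells and 1467 in cells without Mki67. The last log2 ratio was -0.03 (-0.07 to 0.01), so Sncg did not set the members apart from cells without Mki67. Gap43, a growth cone gene, was at 2317 CPM in E14 members and 2163 in cells without Mki67. Tubb3, the neuronal tubulin, stood somewhat higher in members, at 2733 against 1962 CPM, a log2 ratio of 0.48.

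Axon guidance and adhesion genes included several that were higher in members than in other kept cells. At E14, 10 of 24 were at least 2-fold higher and 3 lower, against 4.76% and 12.2% of all genes. At E16, 10 of 23 were higher and 1 lower, against 9.03% and 9.47% of all genes, with 7 of 22 higher at both ages. Dcc, the netrin receptor, was at 136.3 CPM in E14 members, 49.01 in other cells and 92.09 in those without Mki67, a log2 ratio to the last of 0.57. Igfbpl1, known from growing ganglion cell axons, was at 603.6 CPM in E14 members and 413.8 in cells without Mki67, and at 669.4 and 401.9 CPM at E16. Both ages thus gave Igfbpl1 an excess over cells without Mki67. Plxna2, a semaphorin co-receptor gene, lay the other way at E14, with 7 UMIs in members (1.677 CPM) against 12.23 CPM in cells without Mki67.

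**Figure D2:**
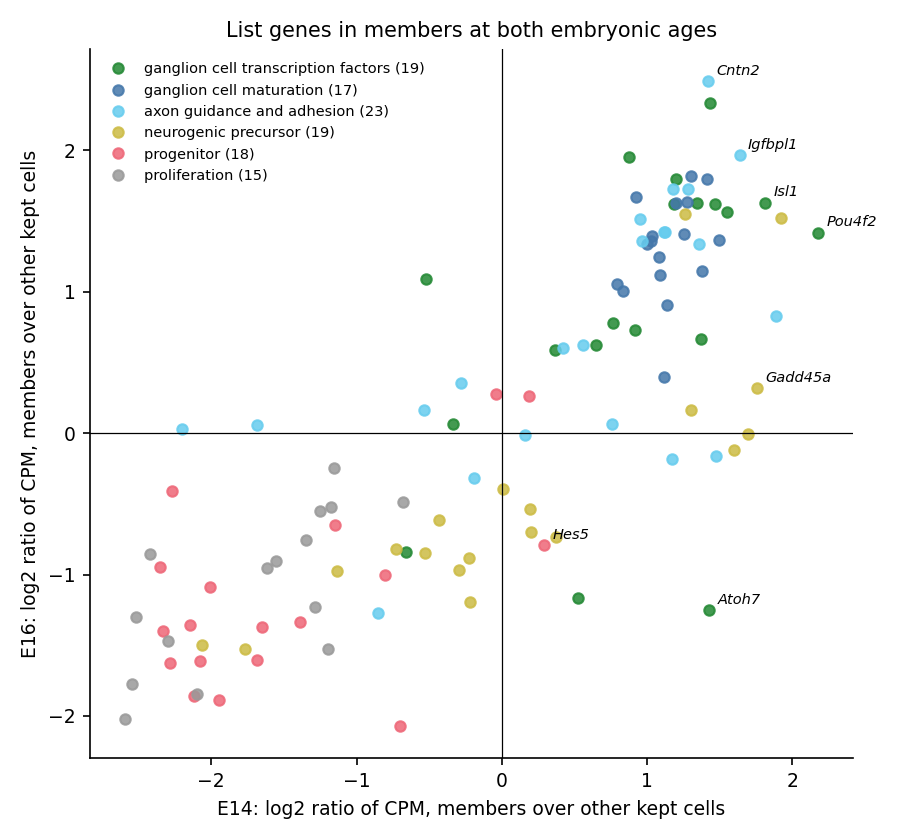
Log2 ratio of CPM, members over other kept cells, at E14 (x axis) and E16 (y axis) for genes of 6 lists that were described in both libraries, with the genes of the rule left out. Ganglion and maturation genes lie mostly at the upper right, progenitor and proliferation genes at the lower left, and Hes5 is at 0.29 at E14 and -0.79 at E16. The point for Atoh7 at E16 rests on 1 UMI in members.

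Atoh7, Gadd45a, Mfng and the progenitor list gene Hes5 stood above other cells without Mki67 at E14, while the neurogenic list as a whole had a median of 0.14 against them. Atoh7 was at 2709 CPM in members and 834.9 in other cells without Mki67, a log2 ratio of 1.70 (1.67 to 1.73). Members held 0 to 113 Atoh7 UMIs with a median of 12, and 78.7% held one after thinning to 2000 UMIs. Gadd45a, a growth arrest gene that is transiently on as neurons are born, was at 576.3 and 179.7 CPM, a ratio of 1.68. Hes5, a target of Notch signalling, was at 401.4 and 202 CPM, a ratio of 0.99, and Mfng, a glycosyltransferase that modifies Notch receptors, was at 101.1 and 35.22 CPM, a ratio of 1.52. Rgs16, a regulator of G protein signalling on the neurogenic list, was at 51.26 and 19.14 CPM, a ratio of 1.42, and Hes6 was 0.51 above those cells on the same scale. Neurod1, Neurod4 and, by a smaller margin, Neurog2 lay below them. Neurog2 was at 49.82 CPM in E14 members and 58.51 in cells without Mki67, Neurod1 at 98.21 and 171.4, and Neurod4 at 22.52 and 66.31. Against all other kept cells 6 of the 19 neurogenic genes were at least 2-fold higher and 3 lower at E14, and the list median was 0.01. Over all genes 4.76% were higher and 12.2% lower at E14. At E16, 2 of the 19 were higher and 3 lower, with a median of -0.70, against 9.03% and 9.47% of all genes. Atoh7 was nearly absent from the whole E16 library (2.132 CPM in members), which is on the older annotation, so its level was not compared between ages.

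Several genes outside the lists also stood above cells without Mki67. These were chosen after their values were seen, among the genes furthest above cells without Mki67 at E14. Sp8, a zinc finger factor of the developing forebrain, was at 30.18 CPM (126 UMIs) in members and 3.564 CPM in the others, a log2 ratio of 3.08 (2.72 to 3.45). Insm2, a zinc finger gene related to the neuroendocrine factor Insm1, was at 84.31 and 10.41 CPM, a ratio of 3.02 (2.80 to 3.23). Ankrd2, an ankyrin repeat gene, was at 11.98 and 0.9821 CPM, a ratio of 3.61. All 3 genes were rare in other cells without Mki67, which held 127 UMIs of Sp8 and 371 of Insm2 over 7497 cells. All other kept cells, those with Mki67 included, held 282 UMIs of Sp8 (2.912 CPM) and 1156 of Insm2 (11.94 CPM). Plekhh2 was at 28.5 and 5.528 CPM, Lsp1, which encodes an actin-binding protein, at 35.45 and 7.632 CPM, and Eya2, a phosphatase and transcriptional co-activator gene, at 123.4 and 35.47 CPM. Sstr2, a somatostatin receptor gene, was at 24.67 and 7.913 CPM, and the Notch target Hey1 was at 44.07 and 15.15 CPM. Members also stood above all other cells without Mki67 in Btbd17 (226.6 against 78.32 CPM) and in Phlda1 (106.1 against 35.47 CPM).

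**Figure D3:**
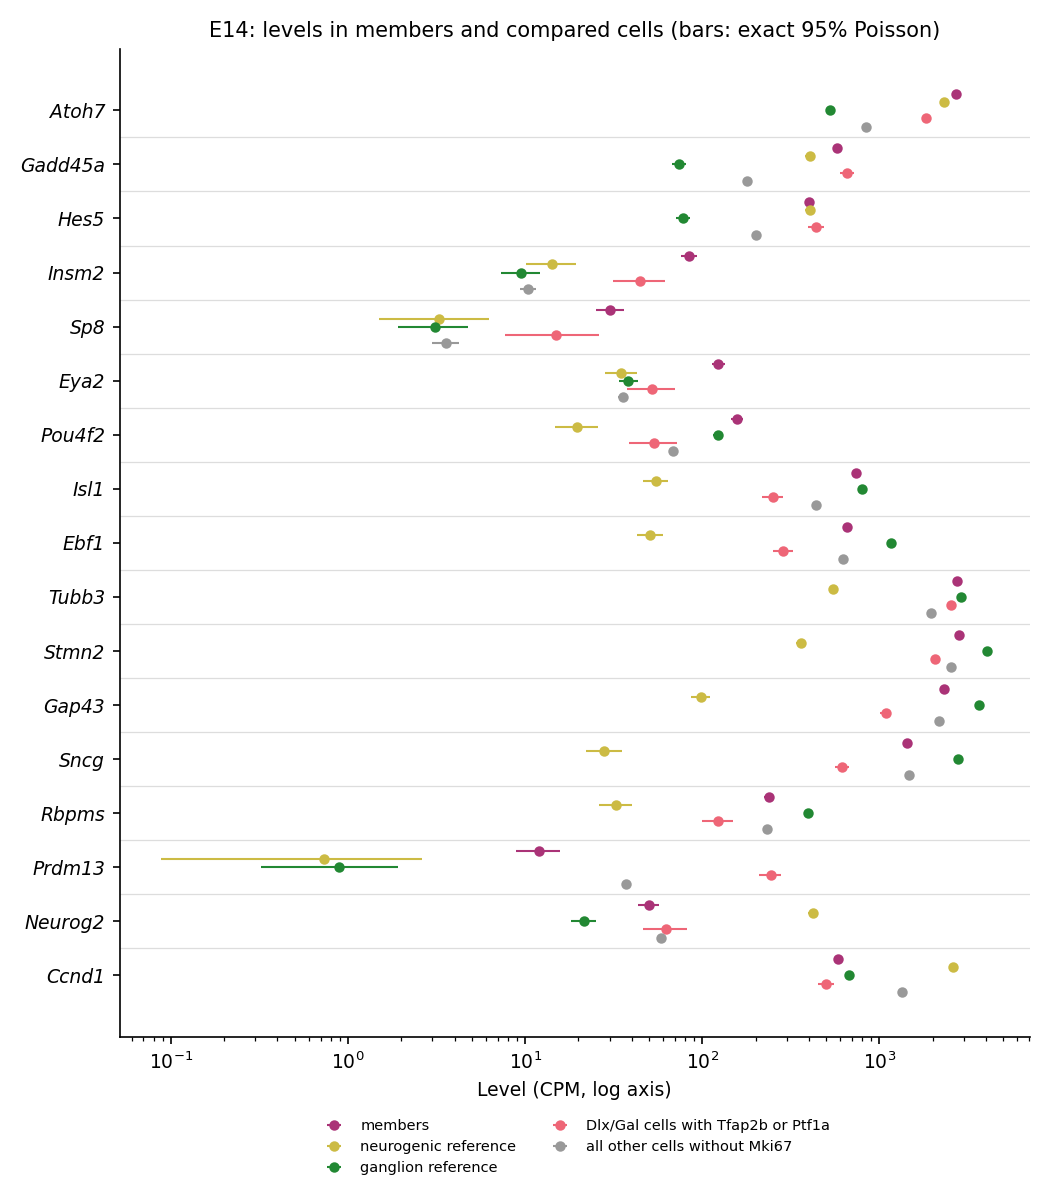
Levels (CPM, log axis) of 17 genes at E14 in members and in 4 groups of compared cells, with exact 95% Poisson intervals. Atoh7 is at 2709 CPM in members and 525.7 in the ganglion reference, while Sncg is at 1433 and 2763 CPM.

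Some genes were chosen by agreement of both libraries. Among the genes furthest above all other kept cells at both ages were Insm2 (log2 ratios of 2.82 at E14 and 2.20 at E16), Isl1 (1.81 and 1.63), Igfbpl1 (1.64 and 1.96), the stress kinase gene Plk3 (1.87 and 1.56), the early neuronal factor Nhlh1 (1.92 and 1.52), the homeodomain gene Irx2 (1.55 and 1.57) and the matrix gene Edil3 (1.52 and 1.57). The list also held Lmo1 (1.48 and 1.53) and Shh, the hedgehog ligand made by ganglion cells, whose E16 ratio of 1.58 had an interval of -0.74 to 3.18. The E16 values rest on 3 UMIs for Shh, 7 for Nhlh1, 10 for Plk3 and 16 for Insm2. Against cells without Mki67 at E16, Insm2 was at 34.11 CPM (16 UMIs) and 9.614 CPM, a log2 ratio of 1.83 (0.97 to 2.59). The genes furthest below other cells at both ages were Gnat2, a cone transducin gene (-3.45 at E14), Esco2, Kif2c, Sema4d, Cdkn3, Kif20b, Dnaic1, Yap1, Gli3 and Cyp26a1. Their E16 values rest on 1 or 2 UMIs in members. At E14 the value of Gnat2 also rests on 1 member UMI (-8.76 to -0.96) and that of Dnaic1 on 2.

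Progenitor and cell cycle genes were low against other kept cells, which the exclusion of Mki67 sets in part. In the proliferation list without Mki67, 14 of 15 genes at E14 and 7 of 15 at E16 were at least 2-fold lower in members. Over all genes 12.2% were lower at E14 and 9.47% at E16. The sum of this list was 1630 CPM in members and 2204 in other cells without Mki67 at E14. At E16 these sums were 1021 and 1010 CPM, so members were not lower there. Against the ganglion reference the sum was higher in members, at 1630 CPM against 1139 at E14 and 1021 against 576 CPM at E16. Top2a, a topoisomerase gene of dividing cells, was at 138.6 CPM in E16 members and 48.14 in the E16 ganglion reference, a log2 ratio of 1.53 (1.07 to 1.97). In the progenitor list 13 of 18 genes at E14 and 12 of 18 at E16 were at least 2-fold lower in members than in other kept cells. None of this list was higher at either age, where 4.76% and 9.03% of all genes were. Ccnd1, the cyclin of dividing progenitors, was at 586.4 CPM in E14 members, 2595 in other kept cells and 1346 in those without Mki67, a log2 ratio to the last of -1.20. The progenitor median against cells without Mki67 was -0.94 at E14 and -0.35 at E16. Members at E14 thus lay below cells without Mki67 in most of these genes, with Hes5 (0.99), Notch1 (0.26), Six3 (0.13) and Vim (0.01) as the exceptions. Of 8 described cell cycle exit genes, 1 was at least 2-fold higher and 1 lower at E14, against 4.76% and 12.2% of all genes. Cdk5r1, the neuronal activator of the kinase Cdk5, was the higher one at E14, at 113.5 against 51.1 CPM. At E16, 2 of 8 were higher and 1 lower, against 9.03% and 9.47% of all genes. Counts this small are given without a reading of the list.

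Genes of the amacrine and horizontal list other than those the rule excluded were mixed. At E14, 1 of 15 described genes was at least 2-fold higher in members than in other kept cells and 6 were lower, with a median of -0.65, where 4.76% and 12.2% of all genes were higher and lower. At E16, 2 of 12 were higher and 3 lower, against 9.03% and 9.47% of all genes. The E16 median was -0.53, and it was -0.20 at a minimum of 20 UMIs. Onecut1, at 8.28 CPM over the whole E16 library and 67.6 CPM at E14, is in this list and in the neurogenic list, and Dcc, at 4.75 and 52.6 CPM, is in the axon guidance list, so the E16 values of these lists include genes that are low throughout the older annotation. The summed level of the list was 1075 CPM in members and 905 in other kept cells at E14, and 1271 and 1167 CPM at E16. Tfap2a, the partner of Tfap2b, was at 0 UMIs in E14 members, which allows 0.719 CPM, and at 2 UMIs in E16 members. Prdm13, an amacrine factor downstream of Ptf1a, was at 11.98 CPM (50 UMIs) in E14 members and 37.07 CPM in cells without Mki67. Barhl2, which is used by amacrine and ganglion subtypes, was the gene above 2-fold at E14, at 37.61 against 14.38 CPM in other kept cells. Among transmitter genes, Gad2, an enzyme of GABA synthesis, was at 42.16 CPM in E14 members and 22.7 in cells without Mki67, a log2 ratio of 0.89, whereas at E16 it was at 25.58 and 30.91 CPM.

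The other Dlx genes and the galanin receptors were near or at 0. Dlx3 gave 3 UMIs in E14 members, and Dlx4, Dlx5 and Dlx6 gave 0. Dlx1as, a transcript annotated antisense to Dlx1, gave 12 UMIs (2.874 CPM) in E14 members against 0.4131 CPM in other kept cells. How well reads of Dlx1 and Dlx1as were told apart where they overlap was not tested. Galr1 and Galr3 gave 0 UMIs in members at E14. Of the other neuropeptide genes, Sst, the somatostatin precursor, was at 57.01 CPM in E14 members and 92.99 in cells without Mki67, and Tac1 and Adcyap1 were at 22.04 and 22.28 CPM, with 18.35 and 19.56 CPM in cells without Mki67. Against all other kept cells 2 of 7 described neuropeptide genes were at least 2-fold higher and 2 lower at E14. Over all genes 4.76% were higher and 12.2% lower at E14. At E16, 3 of 5 were higher and 0 lower with a median of 1.33, against 9.03% and 9.47% of all genes. The 3 higher genes at E16 were Sst (25 UMIs), Adcyap1 (12 UMIs) and Tac1 (8 UMIs), whose log2 ratios to E16 cells without Mki67 were 0.66, 0.76 and 0.01.

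Markers of microglia, red blood cells, pigment epithelium and photoreceptors were low in E14 members. At E14 none of the described genes of the microglia (6), red blood cell (5) and pigment epithelium (6) lists was higher in members. All of them were at least 2-fold lower, against 12.2% of all genes. The summed level of the microglia list was 1.20 CPM in members and 15.8 in other kept cells, and that of the red blood cell list was 14.4 and 585 CPM. The vascular list summed to 23.2 and 60.2 CPM and the astrocyte list to 3.11 and 5.57 CPM. The photoreceptor list had 5 of 9 genes lower at E14 and 7 of 9 at E16, with 0 higher. Over all genes 12.2% were lower and 4.76% higher at E14, and 9.47% and 9.03% at E16. Crx was at 6.467 CPM in E14 members and 23.99 in cells without Mki67. The bipolar list, which shares Isl1, summed to 744 CPM in E14 members and 220 in other kept cells, of which Isl1 gave 739.4 and 210.5 CPM. At E16 the red blood cell genes gave 0 UMIs in members, and 1 of 2 described astrocyte genes was at least 2-fold higher, Aldoc with 3 UMIs and a log2 ratio of 1.71 (-0.61 to 3.32), while Gfap and Pax2 gave 0. Early response genes of dissociation summed to 192 CPM in E14 members and 231 CPM in other kept cells.

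Several groups of E14 cells were fixed as the most alike, and 3 of them are compared with members first. The first was a ganglion reference of 1114 cells with none of the 6 genes of the rule and at least 2 of Sncg, Nefl and Rbpms. The second was a neurogenic reference of 622 cells chosen in the same way by Neurog2, Hes6 and Dll3. The third was the 146 Dlx/Gal cells with Tfap2b or Ptf1a. The genes that define a reference are high in it by construction.

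Compared with the ganglion reference, E14 members held similar Isl1 and slightly more Pou4f2 but much more Atoh7. In this comparison 161 of 10175 genes (1.58%) were at least 2-fold higher in members and 300 (2.95%) lower. Pou4f2 was at 157.1 CPM in members and 122.7 in the reference, a log2 ratio of 0.36 (0.21 to 0.51), and Isl1 was at 739.4 and 797.1 CPM, a ratio of -0.11 (-0.17 to -0.04). Atoh7 was at 2709 and 525.7 CPM, a ratio of 2.37 (2.31 to 2.42). Gadd45a was at 576.3 and 73.81 CPM (2.96) and Hes5 at 401.4 and 77.79 CPM (2.37). Neurite genes that did not choose the reference lay the other way. Gap43 was at 2317 and 3630 CPM, a ratio of -0.65, and Ina, a neurofilament gene, at 1044 and 1976 CPM, a ratio of -0.92. The genes furthest below the reference were of several kinds, and those outside the lists were chosen after their values were seen. Gfra3, a receptor gene for the growth factor artemin, was at 1.677 CPM (7 UMIs) in members and 14.91 in the reference, and Bmp7, a bone morphogenetic protein gene, at 1.677 (7 UMIs) and 14.02 CPM. Tbx5, a dorsal retina factor, was at 7.425 and 59.78 CPM, Pou4f3 at 3.832 and 34.1 CPM, Onecut3 at 3.593 and 37.64 CPM, and Crabp1, a retinoic acid binding protein gene, at 423 and 2741 CPM. At E16 Crabp1 lay the other way, at 268.6 CPM in members and 84.06 in the ganglion reference, a log2 ratio of 1.68 (1.35 to 2.00). The red blood cell list summed to 1625 CPM in this reference and 14.4 CPM in members, and its part in these ratios was not tested.

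Compared with the neurogenic reference, members held similar Atoh7 and Hes5, lower sums of the neurogenic and progenitor lists, and more ganglion genes. The neurogenic list, which holds the genes that chose the reference, summed to 2064 CPM in members and 4085 in the reference, and the progenitor list to 3559 and 7292 CPM. The proliferation list summed to 1630 and 4201 CPM, so the reference may include cycling cells in which Mki67 was not detected. Its part in the ratios below was not tested. Atoh7 was at 2709 CPM in members and 2311 in the reference, a log2 ratio of 0.23, and Hes5 was at 401.4 and 405.6 CPM, a ratio of -0.01. Gadd45a was at 576.3 and 406 CPM, a ratio of 0.51. In contrast, Isl1 was at 739.4 and 54.62 CPM (3.76), Pou4f2 at 157.1 and 19.66 CPM (3.00) and Sncg at 1433 and 28.04 CPM (5.68). The ganglion reference was required to hold such genes and the neurogenic reference was kept clear of it. This lowers Sncg in the latter by rule and may lower Pou4f2 and Isl1 there. Ccnd1 was at 586.4 and 2617 CPM, a ratio of -2.16. Insm2 and Sp8 were high in neither reference. Insm2 was at 84.31 CPM in members, 9.447 in the ganglion reference and 14.2 in the neurogenic reference, and Sp8 was at 30.18, 3.1 and 3.277 CPM.

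Compared with the Dlx/Gal cells that held Tfap2b or Ptf1a, members held less of several amacrine path genes and more Pou4f2 and Isl1. Here 232 of 8129 genes (2.85%) were at least 2-fold higher in members and 184 (2.26%) lower. The lowest ratios were those of Cldn5, a tight junction gene of vessels, at 1.198 CPM (5 UMIs) in members and 138.9 in these cells (-6.86), and P2rx1, an ATP receptor gene chosen after its values were seen, at 4.551 and 107.9 CPM (-4.57). Cldn5 gave most of the vascular list's sum in these cells (148 CPM, against 23.2 in members), and Pecam1, Cdh5, Tie1, Rgs5 and Cd34 were at 0 there. Prdm13 was at 11.98 CPM in members and 243.1 in these cells, a log2 ratio of -4.34 (-4.82 to -3.89), and Neurod4 at 22.52 and 119.1 CPM, a ratio of -2.40. Onecut2 (253.7 and 607.8 CPM) and the cell cycle inhibitor gene Cdkn1c (268.8 and 973.7 CPM) were also lower in members. Pou4f2 was at 157.1 and 53.34 CPM, a ratio of 1.56 (1.11 to 2.04), Isl1 at 739.4 and 249.3 CPM, and Sncg at 1433 and 614 CPM. Insm2 (84.31 and 44.65 CPM), Sp8 (30.18 and 14.88 CPM) and Gadd45a (576.3 and 656.1 CPM) were closer to each other in these groups than in the 2 references.

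Cells just outside the threshold held less Atoh7 and more Sncg than members. The 1838 E14 cells with 1 of the 3 genes had Atoh7 at 865.1 CPM, against 2709 in members, and Gadd45a at 179.7 against 576.3 CPM. Insm2 was at 12.84 CPM in them and 84.31 in members. Sncg was at 2739 CPM in them and 1433 in members, and Pou4f2 at 105.1 and 157.1 CPM, a log2 ratio of members over these cells of 0.58. The cells outside the threshold were mostly chosen through Gal alone, and the members all held a Dlx gene. The 762 E14 cycling Dlx/Gal cells, also fixed as most alike, met the same threshold but held Mki67. Pou4f2 was at 46.34 CPM in them and 157.1 in members. Their ganglion transcription factor list summed to 5977 CPM against 7750 in members, and their maturation list to 4067 against 16319.5 CPM. Their neurogenic list summed to 2531 against 2064 CPM, and their proliferation list to 7717 against 1630 CPM.

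The members varied among themselves with the pair of genes that admitted them. The 183 E14 cells with all 3 genes were compared with the 283 that held Dlx1 and Gal. Atoh7 was at 4613 CPM with all 3 and 1662 CPM with the pair, a log2 ratio of 1.47 (1.40 to 1.54), Hes5 at 756.5 and 236.1 CPM (1.68) and Gadd45a at 960.5 and 401.1 CPM (1.26). Insm2 was at 177.4 and 52.26 CPM (1.76), Lsp1 at 80.75 and 24.66 CPM (1.71) and Ankrd2 at 35.06 and 8.221 CPM, a ratio of 2.09 (1.15 to 3.11). Genes of neurites were lower where all 3 were detected. Sncg was at 459 and 2109 CPM, a ratio of -2.20 (-2.35 to -2.06), Gap43 at 814.9 and 3300 CPM (-2.02) and Nefl at 454.7 and 1805 CPM (-1.99). Pou4f2 differed little, at 181.7 and 141.5 CPM (0.36, with an interval of 0.07 to 0.65).

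Cells with both Dlx genes showed this pattern with and without Gal. These groups are split on genes that the rule used. Every member with a single Dlx gene held Gal by rule, so the parts of the Dlx pair and of Gal were not separated. Median depth was 4421 UMIs with all 3 genes and 4503.5 with both Dlx genes and no Gal. It was 5372 UMIs with Dlx1 and Gal and 5428 with Dlx2 and Gal. In the 108 cells with both Dlx genes and no Gal, Atoh7 was at 4013 CPM, Sncg at 146 CPM, Gap43 at 629 CPM and Pou4f2 at 214 CPM. In the 152 cells with Dlx2 and Gal, Atoh7 was at 1974 CPM and Sncg at 1910 CPM, near the values of Dlx1 with Gal. The Gal level itself, which the rule used, was 2121 CPM with all 3 genes and 958 and 898 CPM in the pairs that hold it. Sst was at 7.44 CPM in cells with all 3 genes and 71.44 in all other members, and Cntn2, an axonal adhesion gene, at 18.06 and 109.2 CPM.

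**Figure D4:**
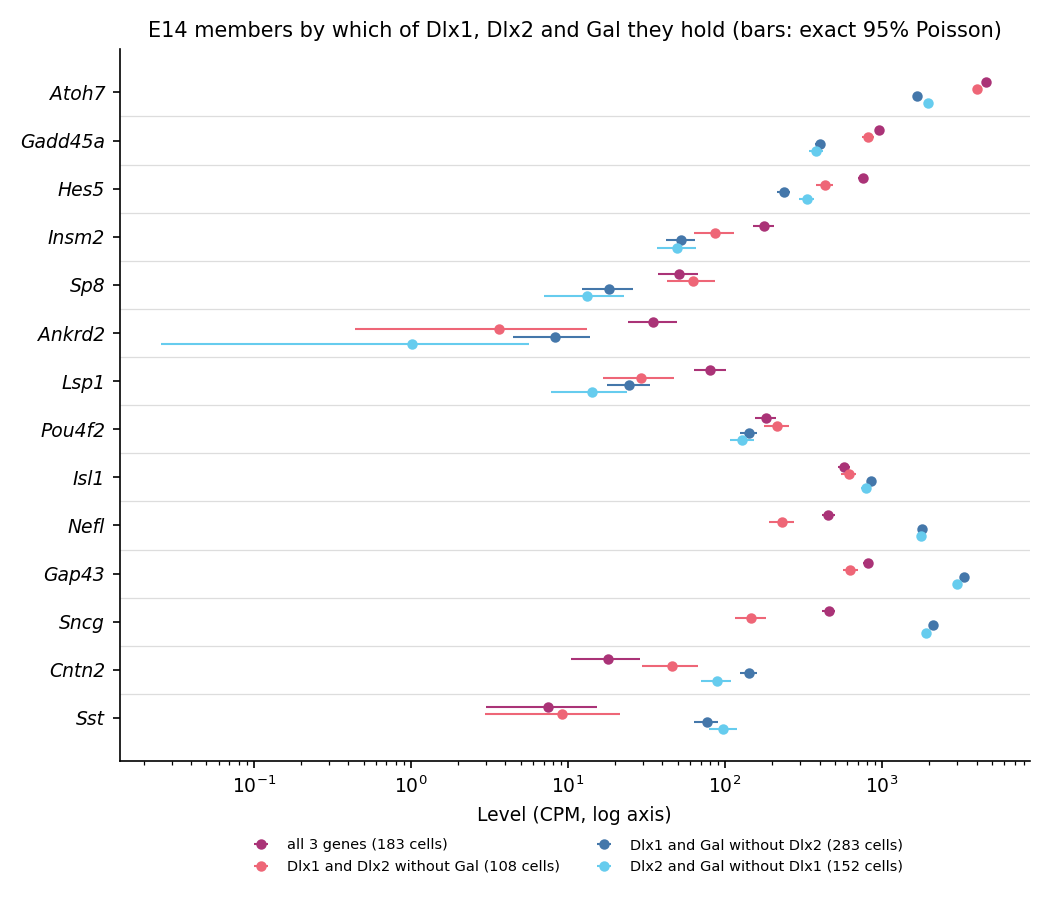
Levels (CPM, log axis) of 14 genes in E14 members by which of Dlx1, Dlx2 and Gal they held, with exact 95% Poisson intervals. Atoh7 is at 4613 and 4013 CPM in the groups with both Dlx genes, against 1662 and 1974 CPM in the others, and Sncg runs the other way.

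Members were also split by Atoh7 and Pou4f2, which the rule did not use. At E14, 319 members (43.9%) held Atoh7 only, 297 (40.9%) held both, 44 (6.1%) held Pou4f2 only and 66 (9.1%) neither. Their median depths were 4200, 4987, 7578 and 6797 UMIs, so the cells without Atoh7 were not the shallow ones. The E16 split was not used, since 1 E16 member held an Atoh7 UMI. The classes are ranges of detection and not cell types.

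Compared with members with Atoh7 only, those with Pou4f2 only held less Gadd45a, Hes5 and Ccnd1 and more RNA of neurite genes, and the 66 cells with neither gene were like the latter. The maturation list summed to 10744 CPM with Atoh7 only, 33037 with Pou4f2 only and 31987 with neither, and the neurogenic list to 2610, 735 and 850 CPM. Both classes without Atoh7 UMIs thus had alike sums of these lists, with or without Pou4f2. The proliferation list without Mki67 summed to 2497 CPM with Atoh7 only, 429 with Pou4f2 only and 845 with neither. Its sum with Atoh7 only was above the 2204 CPM of other cells without Mki67. The rule used Dlx1, Dlx2 and Gal at 1 or more UMI, and the classes differ in depth, so the levels of these 3 genes are given without a reading. Dlx1 was at 280.2 CPM with Atoh7 only and 102.3 CPM with Pou4f2 only, a log2 ratio of -1.45 (-1.98 to -0.97), Dlx2 at 184.6 and 41.47 CPM (-2.15) and Gal at 1175 and 754.8 CPM (-0.64, with an interval of -0.83 to -0.45). Gadd45a was at 778.1 and 58.06 CPM (-3.74), Hes5 at 649.4 and 35.94 CPM (-4.18) and Ccnd1 at 937.4 and 129.9 CPM (-2.85). Sncg was at 877.9 and 3639 CPM, a ratio of 2.05 (1.94 to 2.16), and Gap43 at 1438 and 5524 CPM (1.94). Ebf1 was at 388.4 and 1272 CPM (1.71) and the homeodomain gene Irx5 at 86.59 and 398.1 CPM (2.20). Sp8 gave 47 UMIs with Atoh7 only (28.26 CPM) and 0 with Pou4f2 only, at least 3.41-fold lower when 3 UMIs are taken as the limit of the latter group. The genes furthest up by rule included the receptor tyrosine kinase gene Ret, at 16.84 and 124.4 CPM, and Ly6h, at 58.32 and 414.7 CPM. Among the genes furthest down, Insm2 was at 103.4 CPM with Atoh7 only and 2.76 CPM (1 UMI) with Pou4f2 only, a ratio of -5.23 (-10.54 to -2.73).

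Members with both Atoh7 and Pou4f2 were also set against those with Atoh7 only. Their Sncg level differed by 0.01 (-0.09 to 0.12) on the log2 scale. Their levels of Neurog2 (28.64 against 91.4 CPM), Hes5 (327.3 against 649.4 CPM) and Ccnd1 (422.5 against 937.4 CPM) were lower. Isl1 was higher, at 959 against 494.3 CPM, as were Dcc (212.7 against 105.8 CPM), Gad2 (69.55 against 29.46 CPM) and Barhl2 (57.27 against 27.06 CPM). Sp8 was at 46.17 CPM with both and 28.26 CPM with Atoh7 only, and all 126 Sp8 UMIs of the E14 members lay in cells where Atoh7 was detected.

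**Figure D5:**
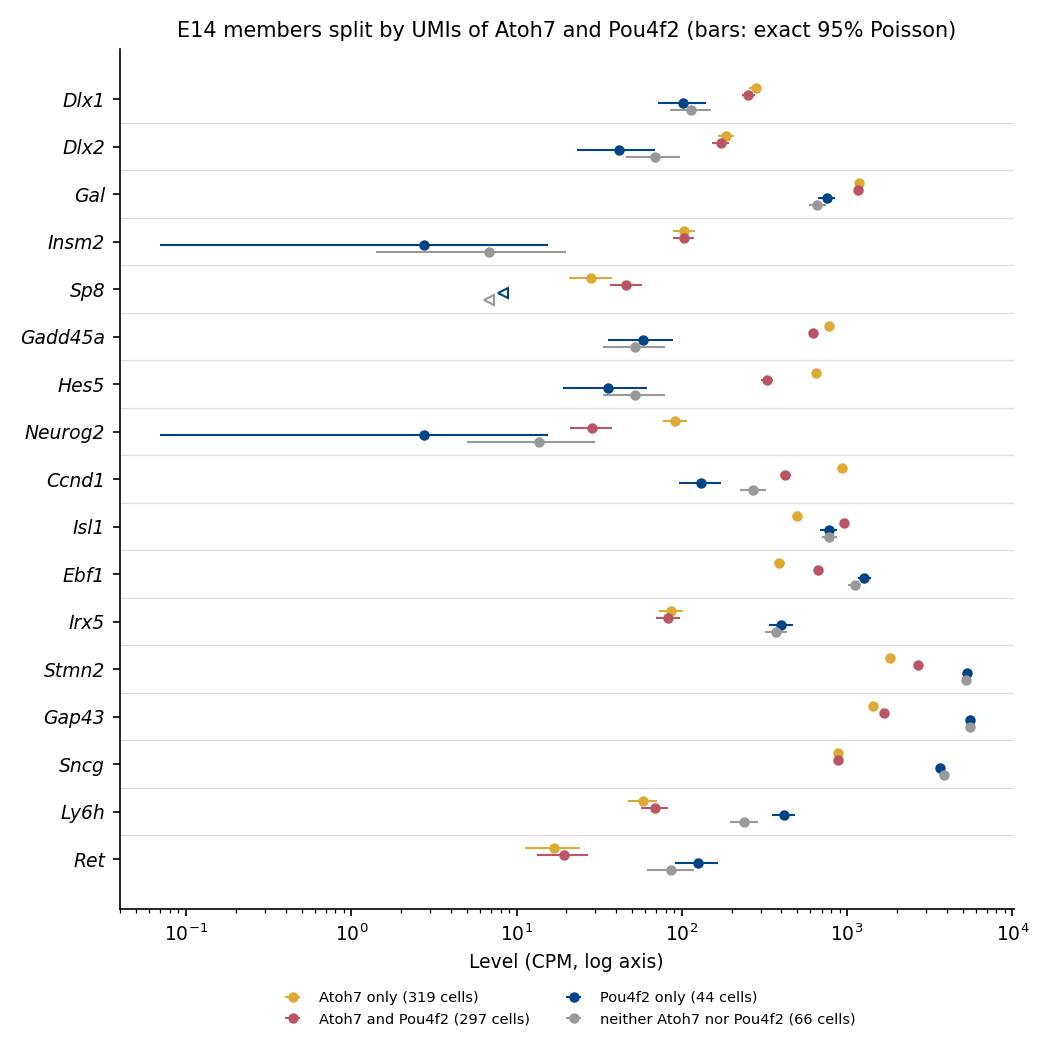
Levels (CPM, log axis) of 17 genes in E14 members split by detection of Atoh7 and Pou4f2, with exact 95% Poisson intervals; open triangles mark 0 UMIs at the level of 3 UMIs. Dlx1 is at 280.2 CPM with Atoh7 only and 102.3 CPM with Pou4f2 only, and Sncg is at 877.9 and 3639 CPM.

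The 57 E16 members were described against their own library, which differs from E14 in depth and annotation. Sncg was detected in E16 members at 0 to 78 UMIs with a median of 25, and 79.8% of all kept E16 cells held a UMI of it. Its E16 level was 3211 CPM in members and 3336 in cells without Mki67, a log2 ratio of -0.06 (-0.13 to 0.02). Pou4f1 was at 761.1 CPM in E16 members, 469.1 in cells without Mki67 (a log2 ratio of 0.70, with an interval of 0.54 to 0.85) and 598 in the ganglion reference of that library. Cntn2 was at 249.4 CPM (117 UMIs), 95.06 and 41.65 CPM in the same groups, and its ratio to the ganglion reference was 2.58 (2.19 to 2.97). In that comparison 1.69% of 6460 genes were at least 2-fold higher in members and 4.24% lower. These E16 levels of Cntn2 contrast with E14, where it was lower in members than in the ganglion reference, at 88.63 against 125.9 CPM. Pou3f1, a POU factor gene chosen after its values were seen, was at 211.1 CPM in E16 members and 53.11 in the ganglion reference.

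Genes furthest above E16 cells without Mki67 rest on few UMIs. These genes were chosen after their values were seen, from 191 of 10255 genes at least 2-fold higher. Slc6a4, the serotonin transporter that some embryonic ganglion cells use transiently, was at 40.51 CPM (19 UMIs) in members and 8.176 CPM in other cells without Mki67, a log2 ratio of 2.31 (1.51 to 3.03). Ppp1r17, a phosphatase inhibitor gene, was at 76.75 CPM (36 UMIs) and 20.85 CPM, a ratio of 1.88 (1.33 to 2.39). Gadd45a was at 125.8 and 70.71 CPM in E16 members and cells without Mki67. Sp8 and Ankrd2 gave 2 and 1 UMIs in E16 members, too few to describe.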

How the data were processed

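The authors deposited raw counts of UMIs per gene and cell barcode, not normalized. Cell Ranger 6.1.2 is given, per the file headers, for 4 libraries (E14 among them), and the submitters' notes name mm10. E16 and the second P3 library are on an older annotation, with no version stated. Genes were joined by Ensembl identifier, 27040 of them in both annotations. Kept barcodes had 300 to 6000 genes, with mitochondrial UMIs limited to 15%. Members and gene lists were chosen with earlier results of these data known. UMIs were summed by group, and a gene was described at 50 or more UMIs and counted at a 2-fold difference. Shares were also taken after thinning to 2000 UMIs. Poisson, conditional binomial and Clopper-Pearson 95% intervals were exact, and 0 was read as up to 3 UMIs.

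Named genes were those of the rule and lists, the 15 highest and 10 lowest that went the same way in both libraries, and the 8 most different each way between members with Pou4f2 only and Atoh7 only. The last part was applied to E14 alone, since Atoh7 was nearly absent at E16. Genes outside this rule were taken from the highest and lowest ratios of each comparison after their values were seen, and some listed genes are not reported here. Doublets were called by comparing each cell's 30 nearest neighbours over 30 principal components of 2000 variable genes with 2 simulated doublets per cell, at 0.8% per 1000 cells, and were removed only in an alternative. The summing and intervals were tested on simulated counts with Poisson error alone, which hold no variation between cells and so do not test its effect. Python 3.11.15, NumPy 2.4.6, SciPy 1.17.1, pandas 2.3.3, scikit-learn 1.9.0 and matplotlib 3.10.9 were used. Replicate libraries exist only at P3, where 7 members were found and no comparison was made.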

Additional observations from a re-analysis of the deposited data

Results flagged for a closer look

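For 5 listed genes the members lay above other kept cells in one embryonic library and below them in the other, with counting intervals that leave out 0 at both ages. Atoh7 (1.43 and -1.25) was not counted, since its E16 value rests on 1 UMI and its interval spans 0. The log2 ratio of Ncam1, an adhesion gene, was -0.28 at E14 and 0.35 at E16. The ratios were 0.29 and -0.79 for Hes5, 0.20 and -0.70 for Hes6, 0.19 and -0.53 for the antiproliferative gene Btg2, and 0.25 and -0.56 for its relative Btg1. Against cells without Mki67, Hes5 was above at both ages (0.99 and 0.42), as were Hes6 (0.51 and 0.11) and Btg2 (0.24 and 0.15), the E16 intervals of the last 2 spanning 0. Ncam1 (-0.25 and 0.29) still lay in opposite directions, and for Btg1 (0.07 and -0.38) the E14 interval spans 0. The difference between the ages was not tested, since each age is 1 library.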

How the results depend on the processing

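No paired analysis was possible because each embryonic age is 1 library, so no replicate could be left out either. Against other cells without Mki67, the Pou4f2 log2 ratio was 1.20 at E14 and 0.27 at E16, 6 genes were at least 2-fold higher and 75 lower at both ages, and list medians at E14 and E16 were 0.057 and 0.18 for ganglion maturation, 0.21 and 0.29 for ganglion transcription factors and -0.94 and -0.35 for progenitor genes. The neurogenic median at E16 turned from -0.70 to 0.11. When the rule was applied after thinning, shares were 3.16% and 0.921%, Pou4f2 ratios 1.70 and 0.068, and counts at both ages 48 higher and 88 lower. Requiring Dlx1 and Dlx2 gave shares of 1.87% and 0.295%, a Pou4f2 ratio of 2.37 at E14 and counts of 90 and 38. Leaving out cells with Top2a or Tfap2a gave 3.30% and 1.44%, 2.31 for Pou4f2 at E14 and 346 genes higher. Requiring all 3 genes, an alternative added after seeing the data, gave 1.18% and 0.184% and counts of 94 and 27. Under 4000 genes, the study's own limit, Pou4f2 at E16 was at 0.40, the counts were 36 and 250, and, added after seeing the data, the Sncg ratio was -1.03 to the ganglion reference and 2.27 between Pou4f2 only and Atoh7 only. The last was 2.24 when the split was made after thinning. Averaging over cells gave 0.71 for Pou4f2 at E16 and 50 genes higher, and weighting other cells to the depth of members gave 2.00 for Pou4f2 at E14 and 115 genes higher. A fold of 1.5 gave 838 and 939 genes and a fold of 3 gave 9 and 104. A minimum of 20 UMIs moved the amacrine and horizontal median at E16 to -0.20. The causes were not tested. Removing called doublets or limiting mitochondrial UMIs to 10% moved no share or Pou4f2 ratio beyond its counting interval and no count at both ages by over 1.5 times.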
